A study of Homo sapiens with 35 samples.

Results

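H9, a line of human embryonic stem cells, was cultured for 48 h either in BA, which is E6 medium with 40 ng/mL each of BMP4 and Activin A, or in E8, the medium that keeps them pluripotent. The comparison described here took 1 BA library and 1 E8 library at each of 8 hours (6, 12, 18, 24, 30, 36, 42 and 48 h), all from the set that carries replicate number 1 or no number, and paired them by hour. These 16 libraries are part of a series of 35, which also holds cells at seeding (t0), E6 without the added factors, and replicates 2 and 3 at some hours. All cells were grown on Matrigel and seeded as single cells, per the labels, so the BA and E8 groups share the line, the seeding and the hours. BA is built on E6 and not on E8, and a BA minus E8 difference therefore spans the 2 added factors and whatever differs between E6 and E8 together. H9 is the only line used, each hour has 1 library per medium, and the labels do not say whether libraries came from separate cultures, so p-values measure the spread between these libraries, which may be technical.

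BMP4 signals through receptors that phosphorylate SMAD1, SMAD5 and SMAD9, while Activin A and its relative NODAL signal through SMAD2 and SMAD3. In the mammalian embryo BMP signals induce WNT3, WNT signals induce NODAL, and the 3 pathways together set up the primitive streak, where epiblast cells become mesoderm and endoderm. The T-box factors TBXT (brachyury) and EOMES and the homeobox factors MIXL1 and GSC mark the streak, and the cells pass through it while they lose the pluripotency factors SOX2, NANOG and POU5F1.

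The starts of 3 genes that respond to BMP are shown because every tested gene of their group was higher in BA. The windows come from RefSeq on GRCh38.p14, on the plus strand. They hold the 250 bases before the start of SMAD6 (chr15:66701986-66702235) and of ID1 (chr20:31605039-31605288), and 101 bases at BAMBI (chr10:28677271-28677371), where the window was shortened because another annotation, GENCODE release 29, starts the gene farther upstream. Capitals mark the letters GTCTAGAC, a SMAD palindrome, GGCGCC, a GC-rich SMAD element, and CAGAC on either strand (GTCTG when read on the other), a short SMAD box.
SMAD6: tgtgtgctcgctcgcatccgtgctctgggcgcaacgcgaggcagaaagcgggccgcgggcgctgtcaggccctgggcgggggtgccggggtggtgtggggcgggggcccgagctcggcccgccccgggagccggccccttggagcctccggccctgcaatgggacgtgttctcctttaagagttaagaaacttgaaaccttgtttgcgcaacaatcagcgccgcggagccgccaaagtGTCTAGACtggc
BAMBI: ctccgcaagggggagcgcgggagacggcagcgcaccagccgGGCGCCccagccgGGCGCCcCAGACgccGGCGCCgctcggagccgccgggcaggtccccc
ID1: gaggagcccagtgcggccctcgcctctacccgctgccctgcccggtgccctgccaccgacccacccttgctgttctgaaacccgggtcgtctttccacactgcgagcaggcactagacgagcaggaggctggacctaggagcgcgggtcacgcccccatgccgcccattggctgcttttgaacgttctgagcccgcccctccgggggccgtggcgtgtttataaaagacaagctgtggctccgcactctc
The SMAD6 window holds 1 GTCTAGAC close to the start. The BAMBI window holds 3 GGCGCC and 1 CAGAC, and the ID1 window holds none of the 3 motifs. Over all 35116 windows of 250 bases in the table, 0.182% hold GTCTAGAC, 16.4% GGCGCC and 38% CAGAC or GTCTG. Among 13 of the 18 tested BMP target genes that have a window, 1 gene holds GTCTAGAC, 3 hold GGCGCC and 5 hold CAGAC or GTCTG. A match describes the letters and is not evidence of a bound site.

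The 16 libraries held 13947752 to 20094992 counts. Levels are given as CPM (library-scaled counts, with TMM factors), and values under 1 CPM rest on few reads. Mitochondrial transcripts took 1.35% to 2.28% of the counts. The libraries stood apart in 3 pairs. CDH1, the epithelial cadherin gene, was at 18.6 CPM at 18 h and 25.1 CPM at 36 h in E8, against 98.4 to 138 CPM in the other 6 E8 libraries, and at 22.6 CPM at 42 h in BA, the library with the lowest mitochondrial share. The same 2 E8 libraries had the lowest LEFTY1 (1.06 and 0.726 CPM) and the highest GBX2 (92.1 and 93.9 CPM) of the 8. Counts below are therefore also given without the 18, 36 and 42 h pairs, and the part of these libraries in other results was not tested. The defining genes of the labelled cell types were present. In E8, POU5F1 stood at 377 to 876 CPM and SOX2 at 208 to 281 CPM, and in BA the streak genes EOMES and MIXL1 passed 100 CPM from 18 h on.

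Over the 8 pairs, 4665 of 16366 tested genes (28.5%) differed in one direction between BA and E8 (edgeR quasi-likelihood F-test with the hour as a block, Benjamini-Hochberg adjusted p below 0.05). Of these, 2387 (14.6%) were higher and 2278 (13.9%) lower in BA, and 840 and 823 of them by at least 2-fold. The difference had the same sign in all 8 pairs in 1660 of the 2387 higher genes and in 1474 of the 2278 lower genes. Without the 18, 36 and 42 h pairs, 1920 of 16531 tested genes passed, 1158 higher and 762 lower. The list counts below stand beside these shares over all tested genes. The number of calls fell over all tested genes, which bears on each list count given without those pairs. Of 4654 genes called over 8 pairs and still tested over those 5, all kept their sign and 1831 kept their call. A test that asks for a constant direction treats a difference that appears late, or reverses, as spread, and the filter on low counts removed genes that appear late. Consecutive hours of 1 course are also not independent cultures.

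Hour by hour, the number of genes at least 2-fold apart (after adding 1 CPM, 1 library per medium, no test) was larger late than early in the course. At 6 h, 2.51% of the tested genes were higher and 0.733% lower in BA. The shares were 3.19% and 2.15% at 12 h, 5.16% and 4.23% at 18 h, 6.75% and 3.86% at 24 h, and 5.87% and 4.1% at 30 h. From 36 h the lower genes were the larger part, with 6.64% higher and 8.49% lower at 36 h, 5.66% and 7.17% at 42 h, and 7.49% and 8.43% at 48 h. E6 set against E8 in the same way shows how far apart 2 libraries without the added factors can lie. The share at least 2-fold apart in either direction was 0.0489% at 6 h, 0.0367% at 12 h, 14.6% at 18 h, 0.91% at 24 h, 0.0733% at 30 h, 2.16% at 36 h, 0.758% at 42 h and 2.47% at 48 h. At 18 h this share exceeded the BA one, and the E8 library of that hour is 1 of those with low CDH1. The E6 library of 18 h stood apart from the other E6 hours as well. It had LIN28B at 118 CPM, against 305 to 390 CPM at the other hours, and POU5F1 at 1242 CPM, against 452 to 567 CPM. The part of each library in the 18 h share was not tested.

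**Figure D1:**
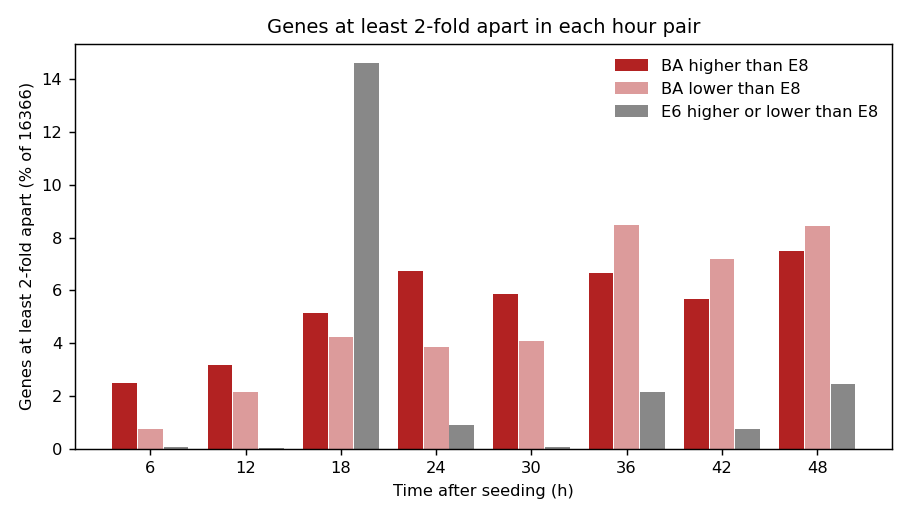
Share of the 16366 tested genes (y axis, %) at least 2-fold apart in each hour pair (x axis, h), for BA above E8, BA below E8, and E6 either way against E8, with 1 library per medium and hour. Genes higher in BA were the larger share up to 30 h and genes lower in BA from 36 h, and the E6 bar is tall at 18 h only (14.6%).

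The 2 directions also differed in when a 2-fold difference set in and then held to 48 h. Of the 840 genes at least 2-fold higher, 147 were already past that fold at 6 h and stayed there. A further 67 began at 12 h, 75 at 18 h, 101 at 24 h, 45 at 30 h, 32 at 36 h, 36 at 42 h and 134 at 48 h. The other 203 were under that fold at 48 h, whatever their earlier values. NODAL was 1 of them, with a log2(CPM + 1) difference of 1.47 at 6 h, 2.42 at 42 h and 0.706 at 48 h. Of the 823 genes at least 2-fold lower, 41 began at 6 h, 68 at 12 h, 53 at 18 h and 70 at 24 h. Later starts were 134 at 30 h, 100 at 36 h, 39 at 42 h and 127 at 48 h, and 191 were under that fold at 48 h. The most frequent start was 6 h for the higher genes (147, with 134 at 48 h) and 30 h for the lower ones (134, with 127 at 48 h). A single library under the fold moves a start later. DMRTA2 counts as starting at 48 h, although its log2(CPM + 1) difference was 2.48, 2.25 and 2.35 at 24, 30 and 36 h, because it was 0.75 at 42 h. The starts were not recounted without the 18, 36 and 42 h pairs. These counts are a description, since the genes were chosen by their mean over the same hours.

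Targets of BMP-SMAD signalling were the list with the most uniform response. All 18 tested members were higher in BA, each by at least 2-fold, with a median log2 difference of 3.78, where the median over all tested genes was -0.01. A member near 0 in E8 could pass the filter on its BA counts, so the filter favours such genes. The listed members it left out were MSX1 and DLX3. With no filter, MSX1 was higher (log2 6.94, edgeR adjusted p = 4.47e-07) and DLX3 was not called (log2 -0.08, adjusted p = 0.923). Without the 18, 36 and 42 h pairs all 17 tested were higher. The response was early and near flat: the list median was 2.57 at 6 h, 3.27 at 12 h and 2.83 at 48 h on the log2(CPM + 1) scale, with its lowest value, 1.76, at 42 h.

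ID1, an inhibitor of basic helix-loop-helix factors and a direct BMP target, ranged over 45.7, 166 and 241 CPM (lowest, median, highest) in BA and 6.33, 10.8 and 18.6 CPM in E8. The groups did not overlap, and the difference was 12.4-fold (log2 3.64 ± 0.27 SE, adjusted p = 2.00e-05). Within BA it was highest at 12 h and lowest at 42 h. ID3, of the same family, stood at 113, 222 and 287 CPM in BA and 35.9, 45.3 and 94.6 CPM in E8, again with no overlap (log2 2.01 ± 0.17 SE, adjusted p = 3.61e-05).

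The feedback inhibitors were among the largest of these differences. BAMBI, a decoy receptor of BMP and TGF-beta ligands, was at 175, 293 and 392 CPM in BA and 9.96, 14.7 and 24.5 CPM in E8 (log2 4.15 ± 0.21 SE, adjusted p = 2.76e-06). SMAD6, the inhibitory SMAD of the BMP branch, stood at 75.8, 172 and 466 CPM in BA and 3.78, 5.18 and 7.04 CPM in E8 (log2 5.17 ± 0.25 SE, adjusted p = 2.04e-06). Neither gene's groups overlapped, and SMAD6 was 1 of 2 members whose gap to E8 widened with time (slope 0.0391 log2 per h, adjusted p = 0.0373). The other was BMPER, a secreted BMP modulator, at 0.272 CPM at 6 h and 191 CPM at 48 h in BA and 0.18 to 0.903 CPM in E8. SMAD7, which also curbs Activin signals, differed less (log2 1.64 ± 0.10 SE, adjusted p = 5.43e-06).

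Secreted antagonists of BMP ligands were higher as well. NOG, which binds BMPs, ranged from 4.59 to 51.6 CPM in BA and from 0.154 to 0.75 CPM in E8 (log2 5.96 ± 0.43 SE, adjusted p = 1.86e-05). GREM1, another BMP antagonist, ranged from 10.1 to 73.4 CPM in BA, highest at 6 h, and from 1.32 to 5.76 CPM in E8. MSX2, a homeobox target, was at 9.57, 118 and 170 CPM in BA and 0, 0.505 and 1.44 CPM in E8 (log2 7.38 ± 0.55 SE, adjusted p = 2.01e-05). HEY1, a transcriptional repressor, was the 1 member whose gap narrowed (slope -0.0607 log2 per h, adjusted p = 0.0225): it stood at 93.7 CPM at 6 h and 26 CPM at 48 h in BA, and at 4.03 to 6.1 CPM in E8.

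Streak genes were higher as well. Of 12 tested members of the primitive streak and mesendoderm list, 9 were higher and 0 lower in BA, with a median log2 difference of 5.33, and the same counts were found without the 18, 36 and 42 h pairs. LEFTY1, LEFTY2 and FOXH1 were not called. The list median was 2.22 at 6 h and 5.92 at 42 h on the log2(CPM + 1) scale.

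WNT3, the ligand that starts streak formation in the mouse, was apart from E8 at the first hour. It was at 27.1 CPM at 6 h, 142 CPM at 24 h and 187 CPM at 30 h in BA, and at 0.924 to 2.91 CPM in E8, without overlap (log2 5.66 ± 0.45 SE, adjusted p = 2.82e-05). WNT8A, another WNT ligand, peaked in BA at 59.6 CPM, and its groups overlapped at the low end (0.707 CPM at 6 h in BA, up to 2.56 CPM in E8). NODAL was at 6.09 CPM at 6 h, 44.9 CPM at 30 h and 2.23 CPM at 48 h in BA, and at 0.528 to 1.56 CPM in E8 (log2 3.59 ± 0.51 SE, adjusted p = 7.78e-04). Its BA values thus formed a peak at 30 h, yet all 8 were above every E8 value.

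EOMES (chromosome 3, 27715949 to 27722711 on GRCh38 in GENCODE release 29, as for the positions below), the T-box factor of the streak and of definitive endoderm, was at 7.62 CPM at 6 h, 36.9 CPM at 12 h, 183 CPM at 18 h and 449 CPM at 24 h in BA. It then stood between 782 and 1163 CPM. In E8 it was at 0.24, 2.41 and 3.74 CPM (lowest, median, highest), with no overlap (log2 7.73 ± 0.77 SE, adjusted p = 1.03e-04). MIXL1 (chromosome 1, 226223618 to 226227054) behaved alike, at 13.8 CPM at 6 h, 412 CPM at 24 h and 1180 CPM at 42 h in BA and 0.925, 2.57 and 4.51 CPM in E8 (log2 6.94 ± 0.89 SE, adjusted p = 4.29e-04).

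TBXT came later. It was at 0.218 CPM at 6 h in BA and 0.3 CPM in E8 at that hour, then at 1.89 CPM at 12 h, 19.0 CPM at 18 h, 97.0 CPM at 24 h, 354 CPM at 42 h and 91.2 CPM at 48 h in BA. E8 ranged from 0.0514 to 1.13 CPM, so the groups overlapped through the 6 h library only, and BA was higher in 7 of 8 pairs (log2 7.52 ± 0.89 SE, adjusted p = 2.78e-04). GSC, a homeobox gene of the organizer, was too low in most libraries to pass the filter. It was at 0 CPM at 6 h, 2.13 CPM at 24 h and 39.0 CPM at 42 h in BA, and at most 0.115 CPM in E8 (log2 7.90 ± 0.48 SE, adjusted p = 1.47e-08 with no filter). EVX1, a posterior streak homeobox gene, also untested under the filter, ranged from 0.218 to 236 CPM in BA and from 0 to 0.563 CPM in E8.

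Counts of the same genes in the E8 libraries were low but not 0. EOMES was at 2.4 to 3.0 CPM at 12 to 24 h in E8, at 0.514 and 0.594 CPM at 30 and 36 h, and at 3.74 and 2.42 CPM at 42 and 48 h. MIXL1 in E8 was likewise lowest at 30 h, at 0.925 CPM, and highest at 42 h, at 4.51 CPM. These levels are far under those of BA at the same hours.

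**Figure D2:**
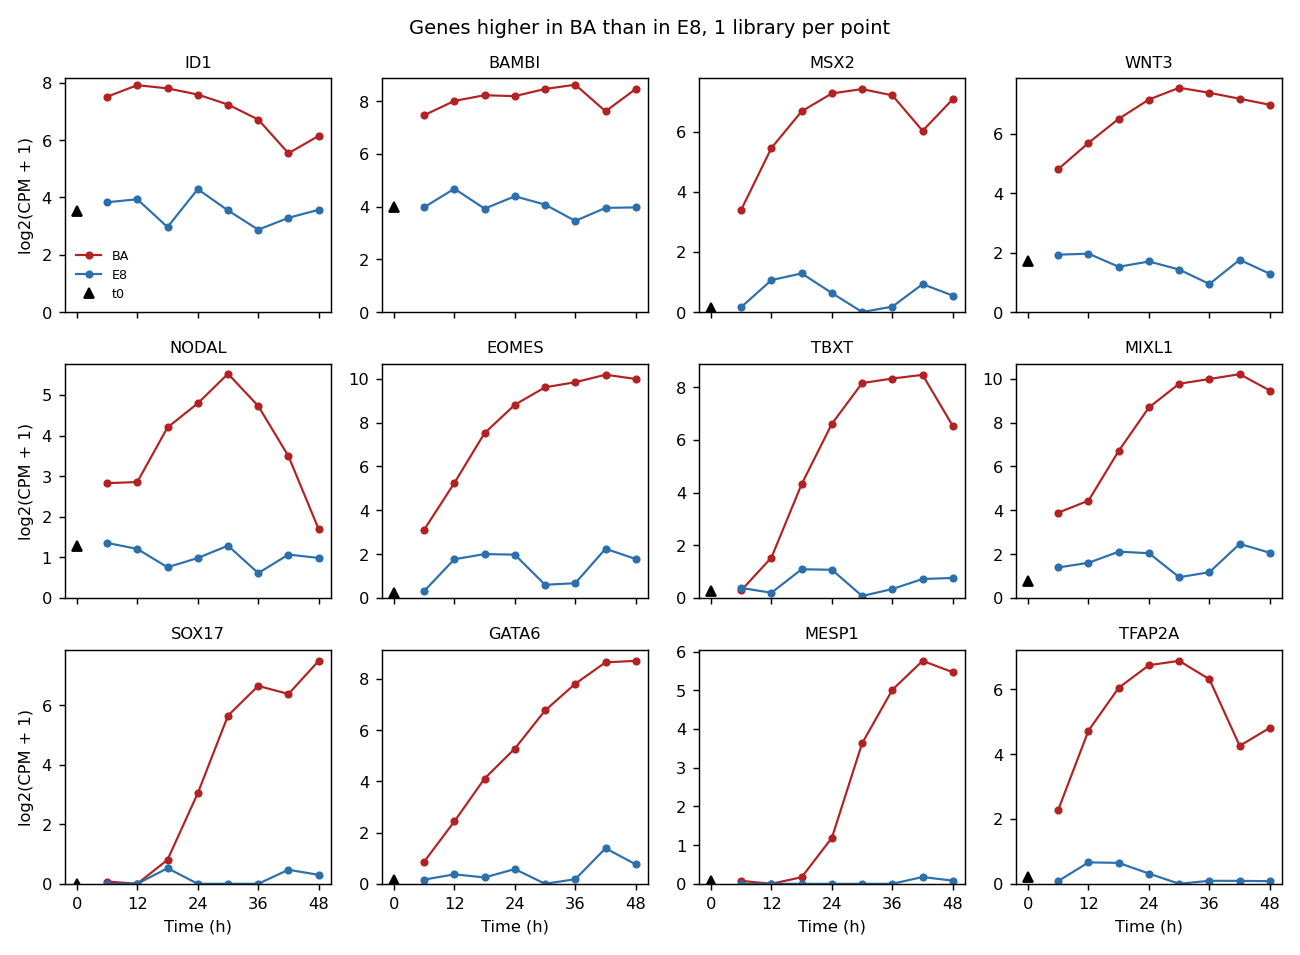
Level of 12 genes as log2(CPM + 1) (y axes, each from 0) against time (x axes, h) in BA and in E8, 1 library per point, with t0 as a triangle. ID1, BAMBI, WNT3 and TFAP2A stood at least 2-fold above E8 from the 6 h library, TBXT and GATA6 from the 12 h one, and SOX17 and MESP1 stayed under 1 CPM up to 18 h.

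Genes of the lineages that leave the streak set in at different hours, some, such as TBX3, APLNR and CER1, at least 2-fold above E8 from 6 h on. Of 14 tested early mesoderm genes, 8 were higher and 0 lower in BA (median log2 2.51; 5 of 13 higher and 0 lower without the 18, 36 and 42 h pairs), and 10 of the 14 had a slope upward with time and 1 (HEY1) a slope downward, against 3.63% and 5.43% of all tested genes. HAND1, a basic helix-loop-helix factor of extraembryonic and cardiac mesoderm, was at 0.272 CPM at 6 h, 22.7 CPM at 30 h and 262 CPM at 48 h in BA and 0 to 0.645 CPM in E8, with overlap through the 6 h library of BA only (log2 8.49 ± 0.56 SE, adjusted p = 9.94e-06). TBX3, a T-box factor, was at 4.57 CPM at 6 h and 456 CPM at 48 h in BA and 0.103 to 1.29 CPM in E8, without overlap. APLNR, the apelin receptor gene, ranged over 9.3, 324 and 3406 CPM in BA and 3.6, 6.23 and 14.4 CPM in E8 (log2 5.35 ± 1.06 SE, adjusted p = 0.00465).

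Several mesoderm genes were not called across the whole course although their late values stood apart. PDGFRA, a growth factor receptor of mesoderm, was at 1.23 CPM at 24 h and 111 CPM at 48 h in BA and 0.944 to 2.64 CPM in E8 (log2 2.83 ± 1.0 SE, adjusted p = 0.0593), and its gap widened (slope 0.178 log2 per h, adjusted p = 0.00298). TBX6, of presomitic mesoderm, was at 0.611 to 1.87 CPM up to 30 h and 10.6, 48.5 and 18.6 CPM at 36, 42 and 48 h in BA, and at 0.48 to 1.21 CPM in E8 (log2 2.08 ± 0.72 SE, adjusted p = 0.0549). MESP1, of nascent mesoderm, did not pass the filter: it was at most 0.125 CPM up to 18 h in BA, then 1.28, 11.4, 31.3, 53.2 and 43.2 CPM, and 3 counts were seen in all 8 E8 libraries together (ratio of summed counts 724, 95% counting interval 247 to 3512). ISL1, of lateral mesoderm, reached 56.1 CPM at 48 h in BA and at most 0.188 CPM in E8.

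Endoderm genes were split, with 40% of the tested ones called, against 28.5% of all tested genes. Of 10 tested, 3 were higher (PRDM1, CER1 and GATA6) and 1 lower (FOXA2), with a median log2 difference of 0.78, and without the 18, 36 and 42 h pairs 2 were higher and 0 lower. GATA6, a zinc finger factor of endoderm and mesoderm, was at 0.816 CPM at 6 h, 37.7 CPM at 24 h and 415 CPM at 48 h in BA and 0 to 1.61 CPM in E8, where the 42 h library was the highest (log2 8.23 ± 0.61 SE, adjusted p = 2.00e-05). CER1, a secreted antagonist of NODAL and WNT, was at 67.3 CPM at 6 h, 28.8 CPM at 24 h and 2723 CPM at 48 h in BA and 3.56 to 16.1 CPM in E8, and its peak in BA was 4539 CPM. SOX17, the definitive endoderm factor, did not pass the filter: it was under 1 CPM up to 18 h and at 7.25, 49.3, 99.4, 82.2 and 179 CPM from 24 to 48 h in BA, and at most 0.438 CPM in E8 (log2 8.32 ± 0.74 SE, adjusted p = 8.13e-07 with no filter). GATA4 followed, at 1.07 CPM at 24 h and 129 CPM at 48 h in BA and at most 0.387 CPM in E8.

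FOXA2, a forkhead factor of endoderm and node, went the other way for most of the course. It was at 0.0533 to 0.267 CPM up to 30 h, then 0.93, 1.92 and 8.91 CPM at 36, 42 and 48 h in BA, and at 0.33, 4.36 and 7.48 CPM (lowest, median, highest) in E8. The groups overlapped, and the lower level in BA (log2 -2.30 ± 0.76 SE, adjusted p = 0.0463) lost its call when any one of the 6, 12, 18, 24, 30 or 42 h pairs was left out (adjusted p 0.074 to 0.114). CXCR4, a surface receptor used to sort endoderm, was not called (log2 1.25 ± 0.50 SE, adjusted p = 0.087), at 17.1 CPM at 48 h in BA and 1.15 CPM in E8.

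None of the 12 HOX and CDX genes passed the filter. CDX1, a caudal homeobox gene and WNT target, reached 29.9 CPM in BA and 0.25 CPM in E8. CDX2 was at 5.65 CPM at 24 h, 4.22 CPM at 30 h and at most 1.98 CPM at the other hours in BA, with 3 counts over the 8 E8 libraries.

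Several genes of amnion and trophoblast were part of the early response. Of 9 tested, 5 were higher (GATA2, GATA3, TFAP2A, TFAP2C and HEY1) and 3 lower (GABRP, IGFBP3 and KRT7) in BA, and 5 and 2 without the 18, 36 and 42 h pairs. Among the tested members, the higher ones are factors that respond to BMP in several lineages, while the lower ones mark differentiated amnion or trophoblast. The members left out by the filter do not all follow that split. With no filter, TFAP2B, a relative of TFAP2A, was lower (log2 -2.47, edgeR adjusted p = 0.0196). CDX2 was higher (log2 5.73, adjusted p = 1.53e-06), and the other members left out were not called. GATA3, a zinc finger factor, ranged over 42.2, 146 and 199 CPM in BA and 0.206, 0.685 and 2.4 CPM in E8, without overlap (log2 7.31 ± 0.43 SE, adjusted p = 5.60e-06). TFAP2A, of surface ectoderm and amnion, was at 3.86 CPM at 6 h, 116 CPM at 30 h and 18.1 CPM at 42 h in BA and at most 0.581 CPM in E8 (log2 7.98 ± 0.50 SE, adjusted p = 7.92e-06). KRT7, a keratin, was below 0.653 CPM in every BA library but 1, the 6 h one at that value, and at 0.668 to 1.33 CPM in E8 (log2 -2.45 ± 0.49 SE, adjusted p = 0.0047).

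WNT targets came in with a delay. Of 12 tested, 6 were higher and 0 lower (median log2 1.83; the same counts without the 18, 36 and 42 h pairs), and the list median was 0.38 at 6 h, 0.55 at 18 h, 2.19 at 24 h and 2.70 at 36 h on the log2(CPM + 1) scale. DKK1, a secreted WNT inhibitor, was at 2.67, 34.6 and 89.1 CPM in BA and 0.06, 0.127 and 0.516 CPM in E8 (log2 7.25 ± 0.51 SE, adjusted p = 1.57e-05). SP5, a zinc finger target, was at 0.0544 CPM at 6 h, 19.4 CPM at 18 h and 152 CPM at 30 h in BA, and at most 0.5 CPM in E8. The stem cell receptor gene LGR5 was at 1.33 CPM at 24 h and 200 CPM at 48 h in BA and at most 0.563 CPM in E8. Of the Activin-Nodal and TGF-beta targets, 7 of 14 were higher and 0 lower (6 and 0 without the 18, 36 and 42 h pairs), with the list median at 1.44 at 6 h and 0.46 at 48 h. PMEPA1, a feedback inhibitor of TGF-beta signals, ranged from 102 to 160 CPM in BA and from 20.5 to 45 CPM in E8, without overlap (log2 1.91 ± 0.13 SE, adjusted p = 1.55e-05).

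**Figure D3:**
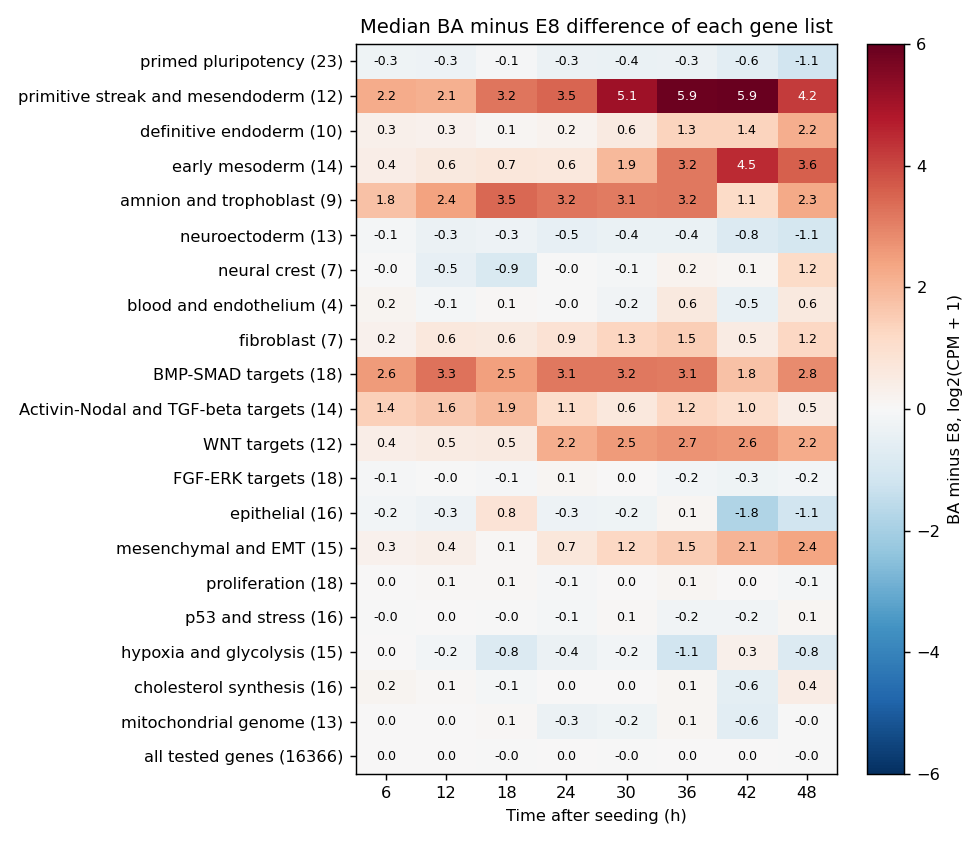
Median BA minus E8 difference of each gene list on the log2(CPM + 1) scale (colour and printed value) at each hour (x axis, h), with the number of tested genes in brackets and all tested genes in the bottom row. BMP-SMAD targets stood at 2.57 by 6 h, WNT targets passed 2 at 24 h, streak genes were highest at 42 h (5.92), and the bottom row lay between -0.01 and 0.03.

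The pluripotency list did not move as a block. Of 23 tested genes, 9 were lower (L1TD1, DPPA4, SOX2, CD24, PRDM14, TERF1, USP44, ZIC2 and DNMT3B), 2 were higher (LIN28B and GDF3) and 12 were not called, and the median log2 difference was -0.28. Without the 18, 36 and 42 h pairs 8 were lower and 0 higher: 6 of the 9 kept their call, SOX2, DPPA4 and USP44 did not, and ZFP42 and FGF2 were called in addition (adjusted p 0.0335 and 0.0416). The call of ZIC2, a zinc finger factor, was lost without the 6, 36 or 48 h pair (adjusted p 0.0517, 0.0641 and 0.0522). The share called was 47.8%, against 28.5% of all tested genes. The list median was -0.28 at 6 h and -1.14 at 48 h on the log2(CPM + 1) scale. A slope downward with time was called in 10 of the 23 and a slope upward in 2, against 5.43% and 3.63% of all tested genes.

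SOX2 (chromosome 3, 181711924 to 181714436), a high mobility group factor shared by pluripotent and neural cells, was at 145, 171 and 138 CPM at 6, 12 and 18 h in BA, then at 69.5, 18.9, 6.45, 12.8 and 3.6 CPM. In E8 it stayed between 208 and 281 CPM, so every BA value lay below every E8 value (log2 -2.73 ± 0.70 SE, adjusted p = 0.0162; 0.108 without the 18, 36 and 42 h pairs). Its gap widened in the lower direction (slope -0.136 ± 0.015 SE, adjusted p = 9.93e-04). DNMT3B, a DNA methyltransferase abundant in primed cells, was at 532, 769 and 1183 CPM in BA and 1520, 1739 and 2150 CPM in E8, also without overlap (log2 -1.14 ± 0.11 SE, adjusted p = 8.92e-05). PRDM14, a repressor of differentiation, dropped early, at 71.2 CPM at 6 h, 18.6 CPM at 24 h and 9.7 CPM at 48 h in BA against 84.9 to 156 CPM in E8 (log2 -2.38 ± 0.24 SE, adjusted p = 1.01e-04).

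POU5F1 and NANOG were not called over the course, since their difference changed sign. POU5F1 was above E8 in 6 pairs, by the most at 18 h (857 CPM in BA and 417 CPM in E8), and below it at 42 h (392 and 493 CPM) and 48 h (298 and 660 CPM; log2 over the course 0.18 ± 0.20 SE, adjusted p = 0.548). NANOG was at 52.6 CPM at 6 h and 8.19 CPM at 48 h in BA, and at 33.1 and 32.5 CPM in E8 (log2 -0.09 ± 0.34 SE, adjusted p = 0.872), and its slope was -0.0679 ± 0.011 log2 per h (SE, adjusted p = 0.00557). Both genes have pseudogene copies that share reads, so their levels are uncertain. GDF3, a NODAL-related ligand, was higher in mid-course: it stood at 9.41 CPM at 6 h, 94.1 CPM at 18 h and 0.655 CPM at 48 h in BA and at 2.57 to 6.41 CPM in E8 (log2 2.28 ± 0.67 SE, adjusted p = 0.0282; 0.156 without the 18, 36 and 42 h pairs).

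The genes named by rule as the largest differences of constant sign, were 8 in each direction. On the higher side they were GATA2-AS1, GATA5, HAND1, NOTUM, BHLHE22, GATA6, RP11-54O7.3 and TFAP2A. In that order they had 0, 1, 17, 6, 3, 56, 40 and 25 counts over the 8 E8 libraries. They thus passed the filter mainly on their BA counts, and their fold sizes and rank depend on E8 values near the floor. GATA2-AS1, an RNA antisense to GATA2, was at 2.3 to 8.32 CPM in BA and had 0 counts in all 8 E8 libraries, at least 183-fold higher against a floor of 3 counts over the group. The strand setting of the counting is not given in the sources used here, so reads of GATA2 and of its antisense partner cannot be told apart. GATA5 ranged from 2.17 to 15.8 CPM in BA, with 1 count over the E8 libraries (ratio 1063, 95% counting interval 190 to 42024). NOTUM, a secreted enzyme that inactivates WNT ligands, was at 4.13 CPM at 6 h and 34.0 CPM at 30 h in BA and at most 0.125 CPM in E8 (log2 8.37 ± 0.41 SE, adjusted p = 2.05e-06). RP11-54O7.3, a clone-named gene, was at 44.5 CPM by 6 h and 106 CPM at 30 h in BA and at most 0.726 CPM in E8. BHLHE22, a basic helix-loop-helix repressor, ranged from 1.58 to 17.7 CPM in BA, with 3 counts over the E8 libraries (ratio 408, interval 139 to 1981).

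On the lower side the 8 were HES3, HTR1A, GBX2, BTBD17, HMX2, ANO1, ARC and SLITRK1, and in each the BA values lay below all E8 values. HES3 (chromosome 1, 6244192 to 6245578), a repressor of the Hairy family known from neural stem cells, was at 2.29 CPM at 6 h and at most 0.437 CPM from 18 h in BA, and at 13.2, 17.9 and 25.8 CPM in E8 (log2 -5.15 ± 0.52 SE, adjusted p = 1.10e-04). HTR1A, a serotonin receptor gene, was at 4.13 CPM at 6 h and 0 CPM at 48 h in BA and 8.45 to 26.5 CPM in E8 (log2 -5.08 ± 0.58 SE, adjusted p = 2.26e-04). GBX2, a homeobox factor of naive cells and of the hindbrain, was at 0.262, 1.97 and 7.4 CPM in BA and 22.7, 46.4 and 93.9 CPM in E8 (log2 -4.34 ± 0.64 SE, adjusted p = 9.34e-04). ARC, a neuronal immediate early gene, was at 14.7 CPM at 6 h and 0.197 CPM at 48 h in BA and 40.4 to 132 CPM in E8. The highest E8 values of GBX2, BTBD17, HMX2, ARC and SLITRK1 were those of the 18 and 36 h libraries, yet all 8 genes kept their call in every alternative run over the pairs.

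Neuroectoderm genes were lower more often than higher, and 61.5% of the tested ones were called, against 28.5% of all tested genes. Of 13 tested, 7 were lower (POU3F1, HESX1, LHX2, PAX6, SOX1, SIX6 and SOX3) and 1 higher (CDH2), with a median log2 difference of -0.81, and 3 and 0 without the 18, 36 and 42 h pairs. SOX3, a relative of SOX2, was at 0.197, 1.3 and 6.31 CPM in BA and 12.1, 19.6 and 26.1 CPM in E8 (log2 -3.73 ± 0.57 SE, adjusted p = 0.00124). SIX6, an eye field homeobox factor, was at 38.9 CPM at 6 h in BA and 28.7 CPM in E8 at that hour, and at 0.197 CPM at 48 h in BA and 23 CPM in E8. PAX6 was near the limit of detection in both media, at 0.48 to 1.0 CPM in BA and 0.709 to 1.5 CPM in E8 (log2 -0.81 ± 0.20 SE, adjusted p = 0.0132; 0.0515 without the 18, 36 and 42 h pairs).

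**Figure D4:**
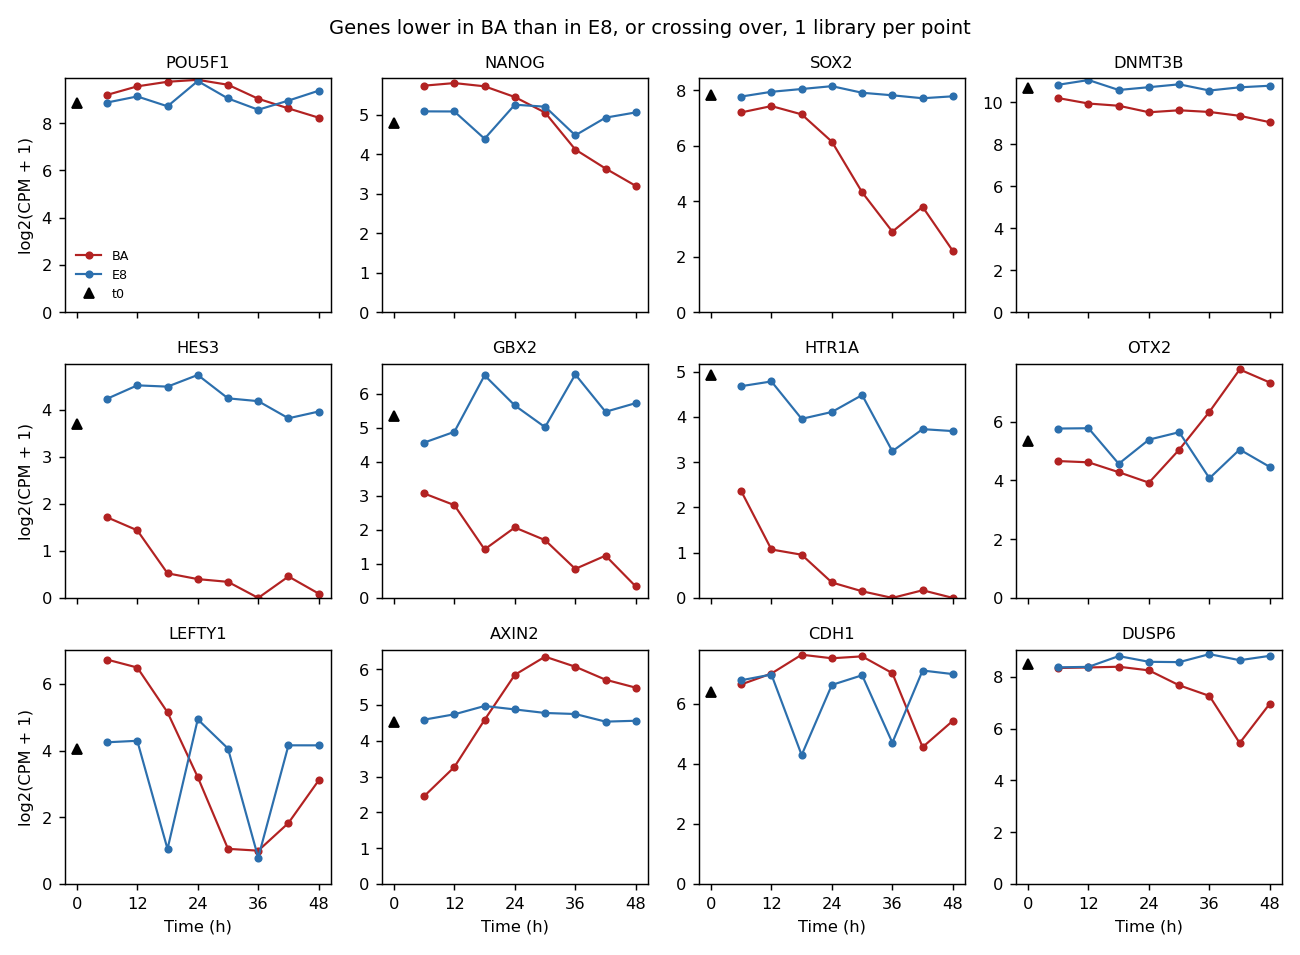
Level of 12 genes as log2(CPM + 1) (y axes, each from 0) against time (x axes, h) in BA and in E8, 1 library per point, with t0 as a triangle. SOX2, DNMT3B, HES3, GBX2 and HTR1A lay below E8 at all 8 hours, LEFTY1, NANOG, OTX2 and AXIN2 crossed over, and the low CDH1 points of E8 are at 18 and 36 h.

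Of 15 tested mesenchymal and EMT genes, 10 were higher and 0 lower (median log2 1.40; 5 and 0 without the 18, 36 and 42 h pairs), and the list median was 0.27 at 6 h and 2.37 at 48 h on the log2(CPM + 1) scale. FN1, fibronectin, was at 287 CPM at 6 h and 3664 CPM at 48 h in BA and 177 to 310 CPM in E8 (log2 2.33 ± 0.47 SE, adjusted p = 0.00491). Of 16 epithelial genes, 3 were lower (OCLN, CLDN3 and CLDN6), 1 was higher (KRT8) and 12 were not called, so 25% were called, near the 28.5% of all tested genes. Without the 18, 36 and 42 h pairs none of these 4 kept its call, and 3 other members were lower: EPCAM (adjusted p = 0.023), ESRP1 (0.0114) and ESRP2 (0.0115). CDH1 was among the 12. It stood at 22.6, 129 and 199 CPM in BA and 18.6, 117 and 138 CPM in E8 (log2 0.36 ± 0.62 SE, adjusted p = 0.698), and its BA values at 42 and 48 h, 22.6 and 42.3 CPM, were under the E8 values of those hours, 138 and 127 CPM. CDH2, the neural and mesenchymal cadherin gene, was at 836 CPM at 42 h in BA and 260 CPM in E8 (log2 over the course 0.67 ± 0.21 SE, adjusted p = 0.0385). Its call was lost without any one of the 24, 30, 36, 42 or 48 h pairs (adjusted p 0.0597 to 0.0878).

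Targets of FGF-ERK signalling, the pathway that E8 feeds with FGF2, were mixed. Of 18, 3 were higher (IER3, DUSP5 and CCND1), 5 lower (ETV5, DUSP4, DUSP6, SPRED1 and ETV4) and 10 not called, with a median log2 difference of -0.11. Without the 18, 36 and 42 h pairs, 2 were higher (IER3 and SPRY4) and 2 lower (DUSP4 and ETV5). DUSP6, an ERK phosphatase, was close to E8 at 6 and 12 h (323 and 327 CPM in BA, 328 and 333 CPM in E8) and below it at 42 h (42.4 and 398 CPM) and 48 h (124 and 448 CPM; log2 over the course -1.02 ± 0.34 SE, adjusted p = 0.0485). That call was lost without any one of the 18, 24, 30, 36 or 48 h pairs (adjusted p 0.0593 to 0.118), while its slope, -0.0646 log2 per h, kept its call (adjusted p = 0.0125). SPRY4, a feedback inhibitor of the same pathway, was not called over the 8 pairs (log2 0.24 ± 0.08 SE, adjusted p = 0.0539) and was called higher without the 18, 36 and 42 h pairs (log2 0.39, adjusted p = 0.0271). ETV5, an ETS factor, was lower throughout, at 44.9 to 83.4 CPM in BA and 86.4 to 119 CPM in E8.

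Genes of general cell programmes were mostly not called. Of 18 proliferation genes, 2 were higher and 2 lower (0 and 0 without the 18, 36 and 42 h pairs), none by 2-fold. Of 16 p53 and stress genes 1 was higher and 3 were lower (1 and 1), and of 16 cholesterol synthesis genes 1 was higher and 1 lower, while 2 other members were called higher without those pairs. Of the 13 mitochondrially encoded genes none was called in either direction. Of 15 hypoxia and glycolysis genes, 1 was higher (NDRG1) and 5 were lower (SLC2A1, HK2, VEGFA, BNIP3 and ADM; 1 and 4). The glucose transporter gene SLC2A1 was at 178, 355 and 609 CPM in BA and 362, 555 and 1152 CPM in E8 (log2 -0.91 ± 0.18 SE, adjusted p = 0.00448). These shares lie under or near the 28.5% of all tested genes, apart from hypoxia and glycolysis (40.0%).

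Markers of cell types outside the expected path were examined beside these lists. Of the tested genes, 57.1% were called for neural crest, 50% for blood and endothelium and 85.7% for fibroblast, against 28.5% of all tested genes. Of 7 tested neural crest genes, 1 was higher (ZEB2) and 3 lower (FOXD3, NGFR and SOX9; 1 and 1 without the 18, 36 and 42 h pairs), SOX10 had 0 counts in both media, and the summed level of the list was 197 to 390 CPM in BA and 162 to 210 CPM in E8. Of 4 tested blood and endothelium genes, 1 was higher (RUNX1) and 1 lower (CDH5; 1 and 1), with a summed level of 15.6 to 58.7 CPM in BA and 30.7 to 42.2 CPM in E8, and the pan-leukocyte gene PTPRC had 3 counts in BA and 9 in E8. Of 7 tested fibroblast genes, 5 were higher (PDGFRB, COL1A2, VIM, POSTN and COL1A1) and 1 lower (S100A4; 3 and 0), with a summed level of 552 to 1258 CPM in BA and 319 to 429 CPM in E8, while the fibroblast marker FAP had 1 count in BA and 0 in E8. In bulk RNA fewer cells of a type and less RNA per cell cannot be told apart, and the part of other cell types in the results was not tested.

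For 1483 genes (9.06%) the BA minus E8 difference changed linearly with the hour (edgeR F-test of the medium by hour term), with a slope upward in 594 (3.63%) and downward in 889 (5.43%). The count depends on the ends of the course: it was 977 without the 6 h pair, 784 without the 12 h pair and 647 without the 48 h pair, and 800 without the 18, 36 and 42 h pairs. Among genes that passed the filter and averaged at least 1 CPM, the steepest called upward slopes belonged to DLX6, DIO3, BMP2, DMRTA2 and BMPER. BMP2, a BMP ligand, was at 1.96 CPM at 6 h, 5.59 CPM at 24 h, 42.8 CPM at 30 h and 416 CPM at 48 h in BA and 1.85 to 3.85 CPM in E8 (slope 0.224 ± 0.018 log2 per h, SE, adjusted p = 4.72e-04), and it was below E8 in the first 2 pairs. BMP4, whose protein is in the medium, was also higher as a transcript, at 4.41 CPM at 6 h and 222 CPM at 48 h in BA and 0.396 to 3.36 CPM in E8 (slope 0.141 log2 per h, adjusted p = 0.00678). DIO3, a thyroid hormone deiodinase, was at 0.653 CPM at 6 h and 52.8 CPM at 48 h in BA and at most 0.244 CPM in E8. DLX6 and DMRTA2 never passed 8.13 CPM in BA, and the slope of DLX6 was not called without the 6 h pair (adjusted p = 0.065). They had 10 and 5 counts over the 8 E8 libraries, so both slopes rest on few E8 reads. DLX6 did not rise to the end: in BA it was highest at 30 h, at 6.84 CPM, and was at 2.29 CPM at 48 h.

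Among the same genes, the steepest called downward slopes belonged to SIX6, BHLHE41, FOXD3, HTR1A and MYH2. FOXD3, a forkhead factor of pluripotent and neural crest cells, was at 7.18 CPM at 6 h and 0.0655 CPM at 48 h in BA and 11.7 to 20.4 CPM in E8 (slope -0.157 ± 0.014 log2 per h, SE, adjusted p = 4.83e-04). BHLHE41, a clock-related repressor, was above E8 at 6 h (15.7 CPM in BA, 12.0 CPM in E8) and below it at 48 h (0.131 and 18.3 CPM; slope -0.160 ± 0.027, adjusted p = 0.00592). MYH2, a myosin heavy chain gene, was at 0 to 3.41 CPM in both media, and its slope lost its call without any one of the 12, 24, 36, 42 or 48 h pairs (adjusted p 0.0521 to 0.092). In E6, without the added factors, levels also fell from 6 to 48 h. SIX6 went from 30.0 to 5.56 CPM, BHLHE41 from 13.4 to 2.19 CPM and HTR1A from 27.5 to 3.77 CPM. MYH2 went from 3.91 to 0.506 CPM there, and FOXD3, which changed less, from 15.3 to 11.9 CPM.

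A few pathway genes crossed E8 in mid-course. AXIN2, a WNT feedback gene, was lower in BA at 6 and 12 h (4.46 and 8.61 CPM, against 23.1 and 25.7 CPM in E8) and higher from 24 h (56.4 CPM at 24 h and 80.7 CPM at 30 h, against 28.4 and 26.4 CPM in E8). Its slope was 0.0835 ± 0.018 log2 per h (SE, adjusted p = 0.0211), not called without the 6 or the 12 h pair (0.0993 and 0.0744). LEFTY1, a NODAL inhibitor, was the reverse, at 105 and 88.9 CPM at 6 and 12 h in BA and 18.0 and 18.6 CPM in E8, and at 2.54 and 7.6 CPM at 42 and 48 h in BA and 16.8 CPM at both hours in E8 (slope -0.128 ± 0.045, adjusted p = 0.112, not called). OTX2, a homeobox factor of anterior epiblast and endoderm, was below E8 up to 30 h and above it at 36, 42 and 48 h, with 218 CPM in BA and 32.2 CPM in E8 at 42 h (slope 0.113 ± 0.021, adjusted p = 0.0105; 0.0626 without the 48 h pair). In E6, without the added factors, OTX2 was at 104 CPM at 42 h and 162 CPM at 48 h, against 160 CPM in BA at 48 h. Its late rise was thus not particular to BA.

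Curvature, a bend in the course of the difference, was called in 11 genes (0.0672%), 9 bending downward and 2 upward. The count was 0 without any one of the 6, 24 or 30 h pairs, 54 without the 42 h pair and 49 without the 48 h pair, so these calls rest on single libraries. The strongest downward bends were those of GDF3, B3GNT7, GRIA4 and LRRN2, of which GRIA4 had no mid-course peak, and the 2 upward bends were those of PLXNA4 and LIPG. B3GNT7, a glycosyltransferase gene, was at 73.4 CPM at 6 h, 607 CPM at 30 h and 206 CPM at 48 h in BA and 66.4 to 115 CPM in E8. LRRN2, a leucine-rich repeat gene, was at 350 CPM at 24 h and 40.4 CPM at 48 h in BA and 32.5 to 63.8 CPM in E8. PLXNA4, a semaphorin receptor gene, was at 9.57, 2.08 and 9.24 CPM at 6, 24 and 48 h in BA and 7.87 to 13.8 CPM in E8. LIPG, a lipase gene, was at 21.1 to 41.0 CPM up to 36 h and at 187 CPM at 48 h in BA and 28.4 to 47.8 CPM in E8. GRIA4, a glutamate receptor gene, was lower in BA throughout, with a difference that widened faster late in the course, at 45.5 CPM at 6 h and 0.983 CPM at 48 h in BA and 50.3 to 70.9 CPM in E8.

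Replicates 2 and 3 at 48 h are libraries outside the 16 and give the same measure a second time, 2 BA against 2 E8, at 26097462 to 37191969 counts. In replicates 2 and 3, 5076 of 20618 genes (24.6%) were called, 2509 (12.2%) higher and 2567 (12.5%) lower. Of the genes at least 2-fold higher over the pairs, 824 were tested there, and 734 (89.1%) had the same sign, 555 were called the same way and 25 the opposite way. Of those at least 2-fold lower, 804 were tested, 723 (89.9%) had the same sign, 541 were called the same way and 19 the opposite way. All 18 BMP-SMAD targets were again higher, and 9 of 12 streak genes.

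Levels nevertheless differed between the sets. At 48 h, EOMES was at 42.4 and 44.4 CPM in replicates 2 and 3 of BA, against 0.525 and 0.136 CPM in the same replicates of E8, while replicate 1 had 1018 CPM in BA and 2.42 CPM in E8. SOX17 was at 8.91 and 4.27 CPM in replicates 2 and 3 of BA and 0 CPM in E8, and ID1 at 546 and 453 CPM in BA and 11.6 and 9.2 CPM in E8. Pluripotency genes differed in their calls. SOX2 was at 152 and 124 CPM in replicates 2 and 3 of BA and 137 and 129 CPM in E8 (log2 0.04 ± 0.13 SE, adjusted p = 0.855), and DNMT3B at 617 and 614 CPM in BA and 620 and 551 CPM in E8 (log2 0.05 ± 0.11 SE, adjusted p = 0.763). PRDM14 was called higher there (log2 0.69, adjusted p = 0.00182). All 3 were called lower over the 8 pairs, and replicate 1 at 48 h had SOX2 at 3.6 CPM in BA and 218 CPM in E8.

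Of the FGF-ERK targets, 2 of 18 were higher and 12 lower in replicates 2 and 3, against 3 and 5 over the pairs. DUSP6 was at 28.2 and 34.3 CPM in BA and 538 and 503 CPM in E8 there (log2 -4.08 ± 0.14 SE, adjusted p = 1.14e-07), and SPRY4 at 123 and 134 CPM in BA and 428 and 402 CPM in E8 (log2 -1.71 ± 0.11 SE, adjusted p = 6.63e-06). At the same hour, 48 h, replicate 1 had DUSP6 at 124 CPM in BA and 448 CPM in E8, and SPRY4 at 653 and 427 CPM. Epithelial genes were mostly higher in BA where called, 7 of 16 against 1 lower, while over the pairs 1 was higher and 3 lower. CDH1 was at 423 and 442 CPM in replicates 2 and 3 of BA and 278 and 250.2 CPM in E8 (log2 0.69 ± 0.11 SE, adjusted p = 0.00154). Of the cholesterol synthesis genes 12 of 16 were higher, against 1 higher and 1 lower over the pairs. These counts set 48 h alone against the whole course. At 48 h in replicate 1, the list median on the log2(CPM + 1) scale was 0.43 for cholesterol synthesis genes. It was -1.14 for epithelial genes and -0.175 for FGF-ERK targets. The difference between the sets itself was not tested, and the cause was not tested.

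**Figure D5:**
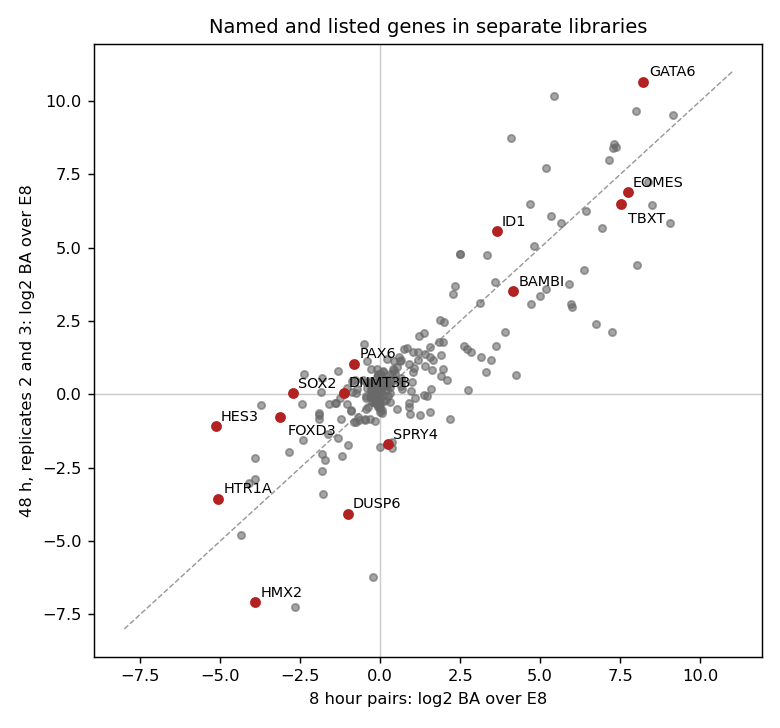
Log2 BA over E8 from replicates 2 and 3 at 48 h (y axis) against log2 BA over E8 from the 8 hour pairs (x axis) for the 265 named or listed genes tested in both, with the dashed line of equal values and labelled genes in red. Of these, 193 have the same sign, SOX2 and DNMT3B lie near 0 on the y axis and below 0 on the x axis, and DUSP6 and SPRY4 lie well below the line.

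E6, the base medium of BA without the 2 factors, was set beside E8 and BA over the same hours. These comparisons share libraries with the one above, so only their values are given. BA differed from E6 in 4047 of 16451 genes (24.6%), 2071 (12.6%) higher and 1976 (12%) lower. E6 differed from E8 in 0 of 16376 genes (0%) by edgeR's quasi-likelihood test, with 374 at an unadjusted p below 0.05. That test asks for a constant direction and counts a gap that appears late as spread, so 0 calls do not mean that the 2 media were alike. In the hourly counts above, 2.47% of genes were at least 2-fold apart between E6 and E8 at 48 h. For EOMES the log2 difference was 8.31 for BA over E6 and -0.53 for E6 over E8, for BAMBI 4.17 and -0.02, for SOX2 -2.90 and 0.21, and for DNMT3B -1.19 and 0.04. DUSP6 was at -0.43 for BA over E6 (adjusted p = 0.155) and -0.59 for E6 over E8, and SPRY4 at 0.71 (adjusted p = 0.0726) and -0.48. In the 48 h libraries of replicate 1, DUSP6 was at 124 CPM in BA, 77.7 CPM in E6 and 448 CPM in E8. SPRY4 was at 653, 112 and 427 CPM in the same order. GBX2 was at -3.54 for BA over E6 (adjusted p = 8.80e-05) and -0.91 for E6 over E8.

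As a description without a model, the mean paired log2(CPM + 1) difference of the 32 panel genes was set against all sign patterns of the 8 pairs. This was an exact, two-sided sign-flip permutation test. For 16 genes the p was 0.00781, the smallest these patterns can give (0.0156 adjusted over the 32), and 12 of these were higher and 4 lower in BA. The 4 were SOX2, DNMT3B, DUSP6 and PAX6. A gene with the same sign in all 8 pairs always gets this p, whatever the size of its difference. The panel was chosen with earlier results of these data known, and consecutive hours of 1 course are not independent. The test therefore adds no separate support to the calls above.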

How the data were processed

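Bulk RNA-seq of H9 cells was analysed from a table of whole-number read counts per gene that the authors deposited. Per the submitters' processing notes, the build was hg38 and the tools included featureCounts and DESeq2, and their versions and the aligner are not given in the sources used here. The members and gene lists were chosen with earlier results of these data known. The 8 BA and 8 E8 libraries were fitted with edgeR 4.0.16 in R 4.3.3 (TMM factors, quasi-likelihood F-test, hour as a factor, Benjamini-Hochberg adjustment over all tested genes, call below 0.05), after edgeR's filter on low counts (the equivalent of 10 counts in 8 libraries) left 16366 of 58581 genes. Slope and curvature terms for medium by hour, the 4 libraries of replicates 2 and 3 at 48 h, and BA against E6 were fitted likewise, and the procedure was tested on simulated data. Levels are CPM, and hourly differences add 1 CPM. The SE was derived from the test, as the absolute log2 difference or slope divided by the square root of its F statistic.

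The genes named were a panel of 32, the 8 called genes with the largest change each way that had a mean of at least 1 CPM and 1 sign in 8 of 8 pairs, the 5 steepest called slopes each way, up to 4 called curvatures each way, and list members as examples. Some genes stand in more than 1 list. The file names TBXT by its older symbol T. Alternatives were RLE size factors, no filter, DESeq2 1.42.0, other terms for the hour, other pseudocounts, parts of the course and leaving out each pair or replicate. A few list members are not reported here by name.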

Additional observations from a re-analysis of the deposited data

Results flagged for a closer look

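In 5 of 67 sets of 8 values, 1 E8 library lay far from the other 7. Chance gives such a flag in about 1 in 20 groups of normally distributed values, a rate that does not hold for values near 0. A set with reads in 1 library and 0 in the other 7, as for GATA5, is always flagged. The rule looks for 1 odd library, so 2 that lie apart together, as with CDH1 at 18 and 36 h, are missed. The high E8 values were MESP1 at 0.129 CPM, GATA4 at 0.387 CPM, HAND1 at 0.645 CPM and BHLHE22 at 0.129 CPM, all in the 42 h library, and GATA5 at 0.0726 CPM in the 12 h library. Each rests on few reads, and the cause was not tested.

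The BA minus E8 difference changed with the hour in 1483 genes (edgeR F-test of the medium by hour term). That is 9.06% of the tested genes. Of 61 named genes 28 had such a slope, but 10 of the 61 were named for the steepest slopes, so the count is partly fixed by that choice. Slopes are in log2 units per h. Upward slopes were 0.113 for OTX2, 0.135 for MIXL1, 0.0761 for WNT3, 0.129 for TBX6, 0.166 for TFAP2A, 0.0835 for AXIN2, 0.0405 for CDH2, 0.252 for DLX6, 0.245 for DIO3, 0.224 for BMP2, 0.215 for DMRTA2 and 0.211 for BMPER. Downward slopes of pluripotency and signalling genes were -0.136 for SOX2, -0.0679 for NANOG, -0.0194 for DNMT3B and -0.0646 for DUSP6. Those of the other genes were -0.107 for HES3, -0.156 for HTR1A, -0.113 for GBX2, -0.115 for BTBD17, -0.0948 for HMX2, -0.145 for ARC, -0.112 for SLITRK1, -0.185 for SIX6, -0.1604 for BHLHE41, -0.157 for FOXD3, -0.152 for MYH2 and -0.106 for GRIA4. The slope calls of DNMT3B, MIXL1, TFAP2A, WNT3, TBX6, AXIN2, CDH2, OTX2, DLX6 and MYH2 were each lost when at least 1 of the pairs was left out.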

How the results depend on the processing

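The count of 4665 genes was 3566 to 4719 when 1 pair was left out, and 4661 with RLE factors, 4972 with no filter, 5119 with DESeq2, 4842 with no hour block, 5553 with a spline of the hour, 5257 with the E6 libraries in the fit and 4173 over 30 to 48 h. It was 2013 over 6 to 24 h, 1663 at 2-fold or more, and 1920 without the 18, 36 and 42 h pairs, an alternative chosen after seeing the data. The 1483 slopes became 647 to 1600 with 1 pair left out, 800 without the 3 pairs and 593 against the log2 of the hour. The 11 curvatures became 0 to 54, 219 without the 3 pairs and 71 with no filter. With a replicate block, replicates 2 and 3 at 48 h gave 7014 calls, against 5076 without it, and the labels do not say what the shared numbers stand for.

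The number of genes 2-fold apart at 6 h was 530 and became 823 after adding 0.25 CPM. After adding 5 CPM it was 233, 404, 789, 938, 964, 1446, 1210 and 1579 from 6 to 48 h.

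Several uncalled log2 differences changed sign when 1 pair was left out: CDH1 ranged from -0.037 to 0.75, LEFTY1 from -0.68 to 0.57, OTX2 from -0.066 to 0.64 and NANOG from -0.30 to 0.17. So did the slopes of ZIC2 (-0.0057 to 0.016), NODAL (-0.028 to 0.069), PAX6 (-0.014 to 0.0055) and SPRY4 (-0.0046 to 0.0073). For BA over E6 the ranges were -0.054 to 0.17 for POU5F1, -0.20 to 0.11 for NANOG and -0.43 to 0.072 for CDH1. In replicates 2 and 3 they were -0.12 to 0.59 for POU5F1, -0.12 to 0.20 for SOX2 and -0.018 to 0.13 for DNMT3B. Without the 3 pairs, OTX2 was -0.49, CDH1 -0.015 and the ZIC2 slope -0.0055. With no hour block NANOG was 0.15 and LEFTY1 1.07, and with the E6 libraries LEFTY1 was 0.097. Over 6 to 24 h NANOG was 0.74, OTX2 -1.05, LEFTY1 1.95 and AXIN2 -0.78, and over 30 to 48 h POU5F1 was -0.11 and CDH1 -0.34. The cause was not tested. Of the other values recomputed for single genes, 1552 kept direction and call, 128 lost a call and 37 gained one. Depth limits values under 1 CPM.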
